A study of Mus musculus with 2 samples.

Results

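The 10 immediate early genes described here are Fos, Fosb, Fosl1, Fosl2, Jun, Junb, Egr1, Egr2, Ier2 and Nr4a1. They were chosen by name, and each is the only gene symbol of exactly 1 probe set, so that they make up 10 of the 19938 genes that could be named on the array. RNA came from primary mouse myoblasts, cells that proliferate and descend from the satellite cells of muscle, and these carried 2 floxed alleles of Mll1 (Rosa-CreER / MLL1 fl/fl) and a CreER recombinase from the widely expressed Rosa26 locus. The Control culture received 0.01% ethanol, and the MLL1 KO culture, here Mll1 cKO, received 500 nM 4-hydroxytamoxifen in the same vehicle. Both were treated for 7 days and kept for 3 days without drug or vehicle according to the labels (the study's methods give a shorter washout), in medium with 20% serum and 5 ng/ml FGF. Both cultures derive from 1 line of cells, isolated from hind limb muscles of young mice by the study's methods, and the control carries the same floxed alleles and recombinase. The drug and the deletion therefore cannot be told apart.

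Immediate early genes are transcribed within minutes of a stimulus such as serum, a growth factor or stress, without the need for new protein synthesis. Kinases of the ERK, JNK and p38 cascades act on transcription factors that already sit on their promoters, and the resulting mRNAs are short-lived because AU-rich sequences mark them for decay. Many of the products are themselves transcription factors. FOS proteins pair with JUN proteins to form AP-1, EGR proteins are zinc finger factors, NR4A1 is an orphan nuclear receptor, and in muscle stem cells several of these genes are induced when the cells leave their niche.

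Each condition has 1 Affymetrix MoGene 1.0 ST array. Values are log2 signals that the authors deposited after RMA, and each difference is Mll1 cKO minus control. With 1 array per condition there is no replicate error and no test, a difference describes these 2 cultures, and precision is limited by the number of arrays. As a scale within the arrays, 777 genes have 2 probe sets of their own, and the differences given by the pair lay 0.14 apart (log2) at the median and 0.62 apart at the 95th percentile, a gap that holds no variation between cultures. Kmt2a, which encodes MLL1, had log2 signals of 9.44 in control and 9.66 in Mll1 cKO cells. Its single probe set is not restricted to the excised part, so it does not check the deletion. Of 9 markers of myoblasts, 8 had log2 signals of at least 9.32 in both arrays, and the exception was Myf5, a myogenic regulatory factor, at 9.51 and 6.14. Markers of endothelial cells did not exceed 5.08 in either array, those of immune cells did not exceed 5.46, and those of fibroblasts did not exceed 6.58. Markers of smooth muscle cells and pericytes spanned 4.51 to 11.23, with a summed log2 signal of 11.36 in control and 11.42 in Mll1 cKO cells, and the 2 Schwann cell markers did not exceed 5.53.

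The bases before the transcription start are shown for the 3 genes with the largest differences (Fos, Egr2 and Fosb) and for the pair with the smallest (Jun and Junb). Each line holds 150 bases that end just before an annotated start, 5′ to 3′ on the strand of the gene, from RefSeq for GRCm38.p6. Egr2 has 5 annotated starts in the table, and the first of 3 that lie close together was used. Capitals mark every match to a searched motif on either strand.
Fos (chr12:85473740-85473889, plus strand): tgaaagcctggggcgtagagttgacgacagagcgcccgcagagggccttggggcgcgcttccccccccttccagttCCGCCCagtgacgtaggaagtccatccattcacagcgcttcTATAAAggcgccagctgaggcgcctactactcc
Egr2 (chr10:67537719-67537868, plus strand): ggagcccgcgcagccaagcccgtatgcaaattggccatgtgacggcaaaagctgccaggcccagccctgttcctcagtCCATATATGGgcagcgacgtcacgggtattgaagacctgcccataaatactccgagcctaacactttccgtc
Fosb (chr7:19310046-19310195, minus strand): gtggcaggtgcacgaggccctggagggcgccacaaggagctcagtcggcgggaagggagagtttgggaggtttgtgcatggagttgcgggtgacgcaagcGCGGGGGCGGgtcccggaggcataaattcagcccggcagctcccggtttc
Jun (chr4:95052223-95052372, minus strand): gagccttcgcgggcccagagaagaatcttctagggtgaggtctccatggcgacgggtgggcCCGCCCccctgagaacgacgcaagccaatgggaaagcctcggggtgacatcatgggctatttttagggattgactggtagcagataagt
Junb (chr8:84978749-84978898, minus strand): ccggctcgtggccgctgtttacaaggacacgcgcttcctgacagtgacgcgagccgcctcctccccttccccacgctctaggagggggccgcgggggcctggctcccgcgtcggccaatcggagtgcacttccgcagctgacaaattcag

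Motifs were searched on both strands in 300-base windows, from 250 bases before the start to 50 bases after it. This was done for 7 members, which were the 5 above, Fosl2 and Nr4a1. Fosl1, Ier2 and Egr1 were not searched, for want of an entry or because member entries on a certain chromosome were left out. The shares of all windows keep that chromosome, and the counts below say nothing of these genes. The CArG box, the motif bound by serum response factor, occurred in Egr2 at -72 from the start and in none of the other 6 windows, and 1.63% of all 32851 windows hold it. The letters of an EGR site, GCGNGGGCG, occurred in Fosb, Fosl2 and Nr4a1, against 5.55% of all windows, and overlap the letters of an SP1 site, GGGCGG, in each of them. The SP1 site occurred in 5 of the 7 windows and in 35.7% of all windows, and the letters TATAAA of a TATA box in Fos and Junb and in 13.6% of all windows. In Fos they begin at -33 from the start, whereas in Junb they begin at the start itself, outside the bases printed above. The 7 windows held no match to the cAMP response element TGACGTCA (1.79% of all windows), the AP-1 site TGANTCA (7.81%) or the ETS site CCGGAAG (8.86%). A match is a run of letters, sites outside the windows or with other letters are missed, and binding was not measured.

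Fos, which encodes the founding member of the FOS family, had the largest difference of the 10 genes. Its log2 signal was 6.02 in control and 7.29 in Mll1 cKO cells, a difference of 1.26, and it was thus 2.40-fold higher in the Mll1 cKO array (probe set 10397346). This was the only member that passed the 2-fold cut-off, 1 of 10, and no member was over 2-fold lower. The study counts genes past the same cut-off in both directions. Among all 21789 probe sets with 1 gene symbol, 1.18% were higher by over 2-fold and 0.101% were lower by as much. Fos ranked 118 from the top of these probe sets, and 1.30% of the 2157 probe sets with a mean signal within 0.5 of its own had a difference as high or higher. The central 95% of those probe sets ran from -0.56 to 1.05.

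The other FOS genes were higher as well, by less than 2-fold. Fosb, whose product also pairs with JUN proteins, had log2 signals of 6.81 (control) and 7.53 (Mll1 cKO) and was 1.65-fold higher. Fosl2, which encodes FRA2, had signals of 7.61 and 8.14 and was 1.44-fold higher. Fosl1, which encodes FRA1, had strong signals in both arrays, 10.11 and 10.34, and was 1.18-fold higher. Probe sets of similar mean signal were as high or higher in 5.56% of cases for Fosb, 11.1% for Fosl2 and 20.2% for Fosl1. All 4 FOS genes thus had a difference above 0, from 0.23 to 1.26.

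Genes for the JUN partners differed little, apart from Jund. Jun had log2 signals of 10.83 in control and 10.80 in Mll1 cKO cells, and its difference of -0.03 turned to 0.03 after centring all differences on the median. Junb had signals of 7.14 and 7.23, and its difference of 0.09 turned to -0.03 when the arrays were quantile normalized again. These sizes are below the median gap of 0.14 between the probe sets of a gene, and of the probe sets of similar mean signal 52.2% were as high or higher than Junb and 56.5% than Jun. Jund, the third JUN gene, is no member of the set, and it had signals of 7.77 and 8.49 and was 1.64-fold higher. Within AP-1, FOS genes therefore had larger differences than Jun and Junb on these arrays, and whether the families differ could not be tested.

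**Figure D1:**
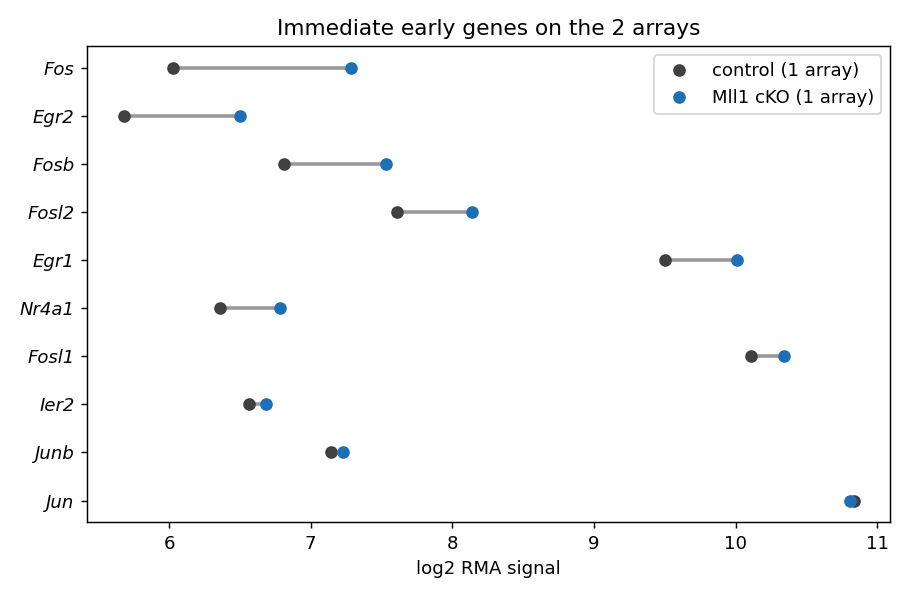
Log2 RMA signal (horizontal axis) of the 10 immediate early genes in control and Mll1 cKO cells, 1 array each, with a line between both values of a gene and no error bars. Genes are ordered by difference, from Fos (6.02 and 7.29) at the top to Jun (10.83 and 10.80) at the bottom. A position along the axis is not comparable between genes, since each has its own probes.

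The remaining members include a pair of zinc finger factors of the EGR family. Egr2, also known as Krox20, had log2 signals of 5.68 (control) and 6.50 (Mll1 cKO) and was 1.77-fold higher (probe set 10363735). Both of its signals were below 7, the minimum tried as an alternative here. Egr1, which is induced by serum and growth factors in many cell types, had the strong signals of 9.50 and 10.01 and was 1.42-fold higher. Probe sets of similar mean signal (within 0.5) reached the difference of Egr2 in 5.23% of cases and that of Egr1 in 6.33%.

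Nr4a1 and Ier2 had smaller differences. Nr4a1, which encodes the orphan nuclear receptor NUR77, had log2 signals of 6.36 (control) and 6.78 (Mll1 cKO) and was 1.34-fold higher, a difference that 18.7% of probe sets of similar mean signal reached. Ier2, a nuclear protein gene of the serum response, had signals of 6.57 and 6.69 and was 1.09-fold higher, and 45.2% of probe sets of similar mean signal were as high or higher. Its difference of 0.12 was below the median gap between the probe sets of a gene, as were those of Jun and Junb.

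Seen together, 9 of the 10 members had a difference above 0, with a median of 0.47 (log2). Over all 19938 genes 41.6% were above 0 and the median was -0.05. This share depends on the signal, and 70.6% of probe sets with a mean signal under 6 lay below 0. In the range of mean signals that the members span, from 6.09 to 10.82, 58.7% of 9570 genes were above 0, with a median of 0.06. At a lower cut-off of 1.5-fold, 3 members (Fos, Egr2 and Fosb) were higher and none was lower, whereas 4.85% of the 21789 probe sets were higher and 2.03% were lower, and of the genes in the same signal range 7.55% were higher. Those 3 are also the members whose difference exceeded 0.62, the 95th percentile of the gap between the probe sets of a gene.

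**Figure D2:**
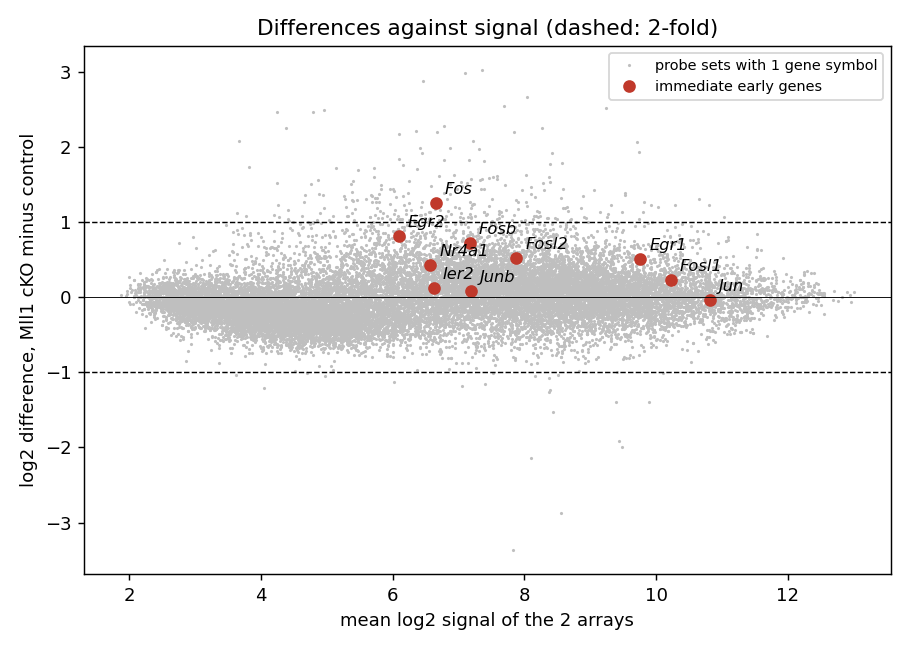
Difference of each probe set with 1 gene symbol (log2, Mll1 cKO minus control, vertical axis) against its mean log2 signal in the 2 arrays (horizontal axis), with the 10 immediate early genes in red and dashed lines at a 2-fold difference. Fos lies above the upper line, the other 9 lie between the lines, and the cloud of dim probe sets sits below 0.

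Relatives of the members did not all point the same way. In the EGR family, Egr3 had log2 signals of 7.50 (control) and 8.0 (Mll1 cKO) and was 1.41-fold higher, whereas Egr4 was 1.23-fold lower, from 6.08 to 5.78. In the NR4A family, Nr4a2 was 1.22-fold lower, from 9.63 to 9.34. Nr4a3 had weak signals of 4.23 and 4.10, and the sign of its difference turned when the trend on signal was removed or the arrays were quantile normalized again. In the IER family, Ier3 and Ier5l were 1.49-fold and 1.51-fold higher, and Ier5 was 1.07-fold lower. Counted with the members, 3 of 4 EGR genes, 1 of 3 NR4A genes and 3 of 4 IER genes had a difference above 0. By comparison, 41.6% of all genes and 58.7% of those in the members' signal range were above 0.

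A wider list held 57 other genes of the immediate early and early stress response. Of these, 1 was over 2-fold higher (1.75% of the list) and 0 were lower by that much. The share higher was 1.18% of the probe sets given above, and 1.77% of genes in the members' signal range, so the list was near it. The gene over 2-fold was Bhlhe40, a transcriptional repressor linked to the circadian clock. It had log2 signals of 5.16 in control and 6.43 in Mll1 cKO cells, 2.42-fold higher. At 1.5-fold, 4.85% of all named probe sets were higher and 2.03% were lower, and 7.55% of genes in the members' signal range were higher. Of the list, 8 genes were higher and 1 was lower. The latter was Socs3, a feedback inhibitor of cytokine signalling, by 1 of its 2 probe sets. The higher ones include Klf4, a Krüppel-like factor of growth arrest, at 1.84-fold with signals of 7.49 and 8.37, Plk3, a polo-like kinase of the stress response, at 1.70-fold with 8.07 and 8.83, and Per1, a clock gene that responds to glucocorticoids and cyclic AMP, at 1.70-fold with 6.68 and 7.44. These 3 were named after their values were seen. The gene with the largest decrease of its mean was Maff, a small MAF factor, at 1.28-fold lower with signals of 6.05 and 5.69. Without regard to size, 39 of the 57 (68.4%) were above 0 and 18 were below, with a median of 0.24. The share above 0 was 41.6% over all genes and 58.7% in the members' signal range.

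Upstream of these genes, no component of the kinase cascades was over 2-fold different. By comparison, 41.6% of all genes and 58.7% of those in the members' signal range were above 0. Of 17 genes of the RAS-ERK cascade that could be named, 13 (76.5%) were above 0 and 4 were below, with a median of 0.12. Rras, a small GTPase related to RAS, was 1.70-fold higher, from 10.19 to 10.95, and Ptpn11, which encodes the phosphatase SHP2, was 1.24-fold lower, from 10.08 to 9.77. Of 18 genes of the JNK and p38 cascades, 11 (61.1%) were above 0, with a median of 0.11. Mapk13, the p38δ kinase, was 1.94-fold higher, from 6.33 to 7.28, and passed 2-fold once all differences were centred on their median, whereas Map3k1 was 1.28-fold lower, from 6.98 to 6.63.

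Serum response factor and its partners had no member over 2-fold. Srf itself had log2 signals of 9.05 (control) and 8.87 (Mll1 cKO) and was 1.14-fold lower. Elk1, a ternary complex factor that ERK phosphorylates, was 1.45-fold higher, from 9.10 to 9.64, and Myocd, the coactivator myocardin, was 1.19-fold lower at weak signals of 4.72 and 4.46. In all, 6 of these 8 genes (75%) were above 0, beside 41.6% of all genes and 58.7% of those in the members' signal range. Feedback genes that switch the response off were higher in part. Among 10 dual-specificity phosphatases of MAP kinases 8 were above 0, with a median of 0.23 and no member over 2-fold, and the largest difference was that of Dusp1, an immediate early gene itself, at 1.41-fold higher with signals of 10.27 and 10.76. The lowest was that of Dusp9, at 1.21-fold lower with 7.46 and 7.18. Nab2, a corepressor that EGR1 induces and that binds it, was 1.40-fold higher, from 9.34 to 9.83.

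**Figure D3:**
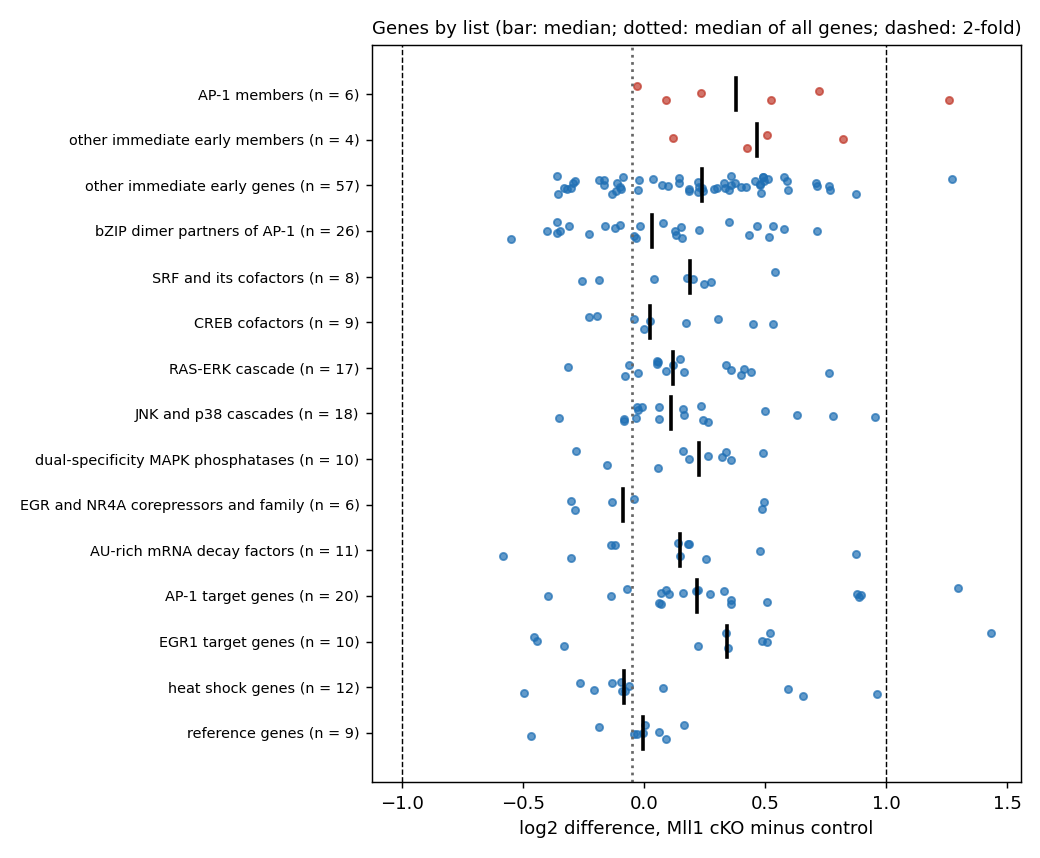
Difference of each gene (log2, Mll1 cKO minus control, horizontal axis, mean of its probe sets) in the members (red) and in the pathway, heat shock and reference lists (blue), with 1 row per list, a black bar at the median of the list, a dotted line at the median of all genes and dashed lines at 2-fold. Among the lists plotted, which leave out the cell type markers, medians run from -0.09 for the EGR and NR4A relatives and corepressors to 0.47 for the members outside AP-1. Lists share some genes.

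Genes often named as targets of these factors were mostly higher by small amounts. Of 20 AP-1 target genes that could be named, 17 (85%) were above 0, with a median of 0.22. Over all genes 41.6% were above 0, and 58.7% of those in the members' signal range. Of the AP-1 targets 1 was over 2-fold higher (5.00% of the list), against 1.22% of all genes and 1.77% of those in that range. This was Fgf7, a growth factor for epithelial cells, with log2 signals of 4.80 in control and 6.10 in Mll1 cKO cells, 2.46-fold higher. The matrix metalloproteinase gene Mmp3 had the lowest difference, at 1.32-fold lower with weak signals of 3.66 and 3.26. Of 10 EGR1 target genes, a list that holds Egr1 itself, 7 (70%) were above 0, and 1 was over 2-fold higher (10% of the list). This was Tgfb1, which encodes the cytokine TGFβ1, at 2.70-fold with signals of 8.33 and 9.77. Icam1, a cell adhesion molecule, had the lowest difference of that list, at 1.37-fold lower with 5.73 and 5.27.

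Over the 174 named pathway genes outside the set, each counted once, 4 were over 2-fold higher and 0 were lower by that much. The 4 are 2.30% of these genes, against 1.22% of all 19938 genes and 1.77% of those in the signal range of the members. Of the 174, 117 were above 0 and 56 below, with a median of 0.16, and the 67.2% above 0 stand beside 41.6% of all genes and 58.7% of those in the signal range of the members. The 4 were Bhlhe40, Fgf7, Tgfb1 and Atf7. Atf7, a bZIP factor of the ATF2 group, passed by 1 of its 2 probe sets, at 2.09-fold with signals of 7.82 and 8.88, whereas the other was 1.07-fold higher with 9.39 and 9.49. When a gene was represented by the mean of its probe sets, 3 remained over 2-fold. The genes of these lists were selected by name with earlier results of the arrays known, so no count here is independent evidence for a direction.

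Of 12 heat shock genes, which are induced by protein damage and stress, none was over 2-fold different. Of these, 4 were above 0 and 8 were below, with a median of -0.08. At 1.5-fold, 3 were higher and 0 were lower, beside 4.85% and 2.03% of all named probe sets. The 3 were Hspb1, Bag3 (1.58-fold) and Hspb8 (1.51-fold). Hspa1a, the inducible HSP70 gene, had log2 signals of 6.22 in control and 6.13 in Mll1 cKO cells. Hspb1, the small heat shock protein HSP27, had 2 probe sets whose mean was 0.96 higher (log2), and Hspd1, a mitochondrial chaperone, had 2 whose mean was 0.50 lower, from 11.23 to 10.74. The 9 reference genes had a median of 0.00, from Pgk1 at -0.47 to B2m at 0.17. Of 7 markers of differentiating muscle cells 5 were above 0, beside 41.6% of all genes and 58.7% of those in the members' signal range. The summed signal of the 7 went from 11.46 to 12.03 (log2). Mymk, the gene of myomaker, a membrane protein of myoblast fusion, was 2.21-fold higher with signals of 8.91 and 10.05. It was the 1 marker over 2-fold higher (14.3% of this list, against 1.22% of all genes and 1.77% in the members' signal range). Myog, which encodes myogenin, was 1.56-fold higher, from 7.30 to 7.94. Myh3 was 1.48-fold, Actc1 1.39-fold and Tnnt3 1.13-fold higher. Cdkn1c had the lowest difference, at 1.27-fold lower with 5.80 and 5.46, and Ckm was 1.08-fold lower. The part of these markers in the differences of the immediate early genes was not tested. In bulk RNA a change in the number of cells of a type and in RNA per cell cannot be told apart.

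**Figure D4:**
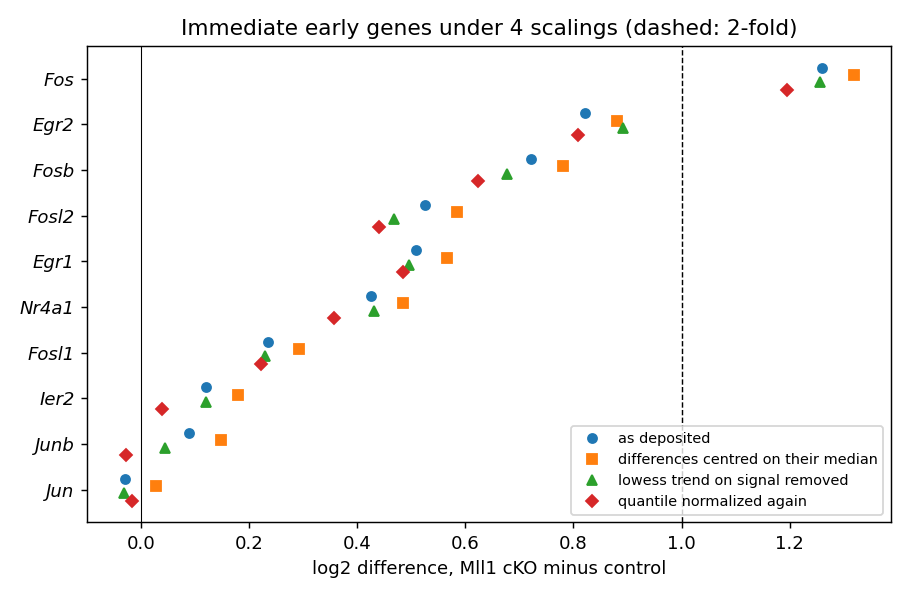
Difference of each of the 10 genes (log2, Mll1 cKO minus control, horizontal axis) under 4 scalings, namely as deposited, centred on the median, with the lowess trend on signal removed, and quantile normalized again. Fos stays between 1.19 and 1.32, right of the dashed 2-fold line, and Jun and Junb fall on either side of 0.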

How the data were processed

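RNA of the control and Mll1 cKO myoblasts was hybridised to 1 Affymetrix MoGene 1.0 ST array each. RMA in Bioconductor, as run by the authors, corrected background, quantile normalized the arrays and summarised probe sets, and the deposited values are log2 signals of 35557 probe sets. Its version was not stated in the sources used here. RMA compresses differences at weak signals, and quantile normalization removes any difference in the overall distribution. The 6618 probe sets numbered below the lowest annotated one were left out as controls. Symbols came from the platform annotation, updated by gene number to RefSeq (GRCm38.p6). The other 28939 divide into 21789 with 1 symbol, the ones named here, 1621 with several and 5529 without any. Of 271 list symbols, 247 could be named. A gene was counted over a cut-off if any of its probe sets passed, while list medians and counts above 0 use the mean of its probe sets. Counts above 0 stand beside 41.6% of all genes and 58.7% of those in the signal range of the members.

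Members and lists were chosen with earlier results of these data known. Named genes are the members, every list gene over 2-fold, the highest and lowest gene of a list and Kmt2a, and not every one is reported. Any other gene named (family relatives of the members, Klf4, Plk3, Per1, Socs3, Srf, Nab2, Zfp36, Hspa1a and Myf5 among them) was chosen after its values were seen. Alternatives were cut-offs of 1.5-fold and 3-fold, centring, removal of a lowess trend (span 0.3), renewed quantile normalization, other treatment of probe sets and a signal over 7. Only the scalings, at the 2-fold cut-off, were tested on simulated data, which had a narrower spread than these arrays. Computations used Python 3.11.15, numpy 2.4.6, pandas 2.3.3 and statsmodels 0.14.6, and plots were drawn with matplotlib 3.10.9.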

Additional observations from a re-analysis of the deposited data

How the results depend on the processing

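Fos was the 1 member over 2-fold higher, with no member lower by that much, after centring, removal of the trend on signal, renewed quantile normalization, with the mean of probe sets and with a signal over 7. The cut-off decided the count, with 3 members higher at 1.5-fold and 0 at 3-fold. The median difference of the members ran from 0.40 after quantile normalization to 0.53 after centring. The number of members above 0 was 9 as deposited, 10 after centring, 9 without the trend, 8 after quantile normalization and 6 of the 7 with a signal over 7. For the pathway genes, the 4 over 2-fold higher became 19 at 1.5-fold, 0 at 3-fold and 2 with a signal over 7, and the 0 over 2-fold lower became 1 at 1.5-fold. They were 5, 6 and 5 under centring, trend removal and quantile normalization, and 3 with the mean of probe sets. Among single list genes, Hspb1 and Mapk13 passed 2-fold only after centring, and Ereg and Hgf only after trend removal or quantile normalization. The median of the CREB cofactors turned from 0.02 to -0.02 under quantile normalization. Centring, trend removal and quantile normalization shifted the median of all named probe sets by 0.06, 0.05 and 0.03. No paired analysis was possible because each condition has 1 array, and for the same reason no array could be left out. The arrays give no detection call here, so weak signals cannot be set against background. These include both signals of Egr2, Nr4a1 and Ier2 and the control signals of Fos (6.02) and Fosb (6.81), on which the fold values of those genes rest.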

Other observations

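Factors linked to AU-rich elements or to mRNA decay, a mixed list, had no member over 2-fold among 11 measured. Of these, 7 (63.6%) were above 0, with a median log2 difference of 0.15. By comparison, 41.6% of all genes and 58.7% of those in the members' signal range were above 0. Zfp36l1, a tristetraprolin relative that promotes decay, had log2 signals of 6.13 (control) and 7.01 (Mll1 cKO) and was 1.84-fold higher. Zfp36, which encodes tristetraprolin and is an immediate early gene, was 1.40-fold higher, from 6.44 to 6.92. Hnrnpd, which encodes the AU-rich binding protein AUF1, had the lowest difference and was 1.5-fold lower, from 10.45 to 9.87.

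Other bZIP factors that can pair with AP-1 proteins were divided, with 13 of 26 above 0 and a median of 0.03. Jund had the highest mean difference and Batf2, a BATF factor of immune cells, the lowest, at 1.46-fold lower with signals of 5.79 and 5.24. Of 9 CREB genes and cofactors 5 (55.6%) were above 0, beside 41.6% of all genes and 58.7% of those in the members' signal range. Crem, which encodes a cyclic AMP response factor with repressor isoforms, was 1.45-fold higher, from 6.14 to 6.67, and Atf1 was 1.17-fold lower, from 9.06 to 8.84.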
